A study of Mus musculus with 13 samples.

Results

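The Hox genes of the 4 mouse clusters were followed through bulk RNA-seq of bone marrow hematopoietic stem and progenitor cells (HSPCs). Members were all genes named Hox followed by a cluster letter from a to d and a number, which gave 39 of the 55421 genes in the deposited tables, of which 38 are described here. The 10 libraries carry the labels Setd2 knockout plus Srsf2 mutated (n = 3, called double mutant here), Srsf2 mutated (n = 3), Setd2 knockout (n = 2) and wild type (n = 2). Setd2 encodes a methyltransferase that marks histone H3 in transcribed genes, and Srsf2 encodes a splicing factor that is mutated in myelodysplastic syndrome. The labels of the 3 single-cell samples, not analysed here, name the alleles Srsf2P95H/+ and Setd2fl/fl, the Mx1-Cre driver that pIpC switches on, in the wild type as well, and a transplant model. None of this, and neither strain, age nor sex, is stated for the bulk libraries. Whether the libraries of a group came from separate mice is not stated either, so p-values measure only the spread between these libraries, which may be technical.

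Hox genes encode homeodomain transcription factors that set positional identity along the body axis of the embryo. They lie in clusters on separate chromosomes, in the order in which they are switched on along that axis, and are numbered by this position (paralogue number). In adult bone marrow, genes of the middle of the A cluster, above all Hoxa9, are transcribed in stem and progenitor cells and shut down as cells mature. Complexes of the MLL type keep the clusters open, Polycomb complexes keep them silent, and Meis and Pbx proteins (TALE homeodomain cofactors) bind DNA together with Hox proteins.

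The promoters of Hoxa9, Hoxa7 and Hoxa5, which were all lower in the double mutant than in either single mutant, are printed with that of Hoxa10. Hoxa10 was called higher in the double mutant than in the Srsf2 mutated group and lower than in the Setd2 knockout group. Neither of these Hoxa10 calls held under all alternatives. Each sequence runs from 250 bases before to 50 bases after the RefSeq start site (build GRCm38.p6, minus strand of chromosome 6), 5′ to 3′. These are chr6:52227321-52227620 for Hoxa9, chr6:52218524-52218823 for Hoxa7, chr6:52204538-52204837 for Hoxa5 and chr6:52240805-52241104 for Hoxa10. Capitals mark the 2 motifs with a match, GGGCGG (GC box) and TTTATG (a site described for Cdx proteins).
Hoxa9: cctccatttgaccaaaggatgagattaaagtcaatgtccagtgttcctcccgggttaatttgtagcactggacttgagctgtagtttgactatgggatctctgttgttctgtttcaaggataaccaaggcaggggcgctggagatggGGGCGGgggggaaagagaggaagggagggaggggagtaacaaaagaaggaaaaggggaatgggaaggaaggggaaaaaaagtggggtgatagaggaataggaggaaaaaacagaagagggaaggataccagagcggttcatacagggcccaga
Hoxa7: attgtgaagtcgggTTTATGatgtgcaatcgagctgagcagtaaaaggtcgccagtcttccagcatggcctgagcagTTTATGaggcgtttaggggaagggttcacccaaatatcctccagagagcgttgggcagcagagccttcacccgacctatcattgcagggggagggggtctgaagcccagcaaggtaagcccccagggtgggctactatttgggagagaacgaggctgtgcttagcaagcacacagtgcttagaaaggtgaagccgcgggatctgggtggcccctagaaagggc
Hoxa5: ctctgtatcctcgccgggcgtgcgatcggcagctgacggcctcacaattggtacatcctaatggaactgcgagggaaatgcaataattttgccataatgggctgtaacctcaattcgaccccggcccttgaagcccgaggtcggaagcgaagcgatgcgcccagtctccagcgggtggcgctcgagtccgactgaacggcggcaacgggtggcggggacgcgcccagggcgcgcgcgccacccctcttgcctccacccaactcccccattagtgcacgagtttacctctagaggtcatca
Hoxa10: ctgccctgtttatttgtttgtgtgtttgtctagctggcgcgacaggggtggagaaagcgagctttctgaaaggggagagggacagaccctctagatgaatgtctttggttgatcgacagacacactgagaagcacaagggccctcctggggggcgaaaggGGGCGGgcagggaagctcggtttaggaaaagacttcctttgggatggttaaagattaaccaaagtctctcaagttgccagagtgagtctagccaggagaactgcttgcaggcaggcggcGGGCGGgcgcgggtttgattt

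The 4 motifs were searched on both strands, and none of the matches in these promoters overlapped another. GGGCGG stood once in the Hoxa9 promoter, 103 bases before the start, and at 2 positions in the Hoxa10 promoter, 90 bases before and 29 bases after the start. It occurred in 35.7% of all 32851 mouse promoters of the same length. TTTATG, present in 11.9% of all promoters, stood at 2 positions in the Hoxa7 promoter, 236 and 173 bases before the start. Neither TATAAA (13.6% of all promoters) nor TGATTNAT, a joint Hox and Pbx site (3.22% of all promoters), was found in the 4 sequences, and the Hoxa5 promoter held none of the 4 motifs. GC content was 61.7% in the Hoxa5, 55.7% in the Hoxa7, 54.3% in the Hoxa10 and 49.7% in the Hoxa9 promoter, against a median of 52.7% over all promoters. The RefSeq start sites of Hoxa7 and Hoxa9 lie 3281 and 3719 bases inside the outermost 5′ end that GENCODE gives for these genes, so each has more than 1 annotated start.

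Library totals lay between 32117387 and 50445434 counts, of which 1184 to 3252 per library fell on the Hox genes described. Setd2 itself averaged 130.4 ± 0.87 CPM in double mutant, 197.1 ± 34.8 in Srsf2 mutated, 221.7 ± 12.9 in Setd2 knockout and 151.7 ± 9.63 in wild type libraries (SD; CPM is the count scaled to the TMM-adjusted library total). A whole-gene count includes exons that a deletion can leave in place, so this level checks none of the labels. The female-specific RNA Xist stood at 471.5 and 499.4 CPM in the wild type libraries and at no more than 7.94 CPM in all others, and the Y-linked Ddx3y stood at 103.7 to 128.2 CPM in the double mutant and Srsf2 mutated libraries and at 0 in the remaining 4. Sex-linked expression therefore cannot be told apart from genotype in comparisons with wild type and in double mutant over Setd2 knockout, and the interaction contains such a comparison. Of the defining HSPC genes, Kit was at 159.0 to 167.1 CPM in double mutant, 194.0 to 219.4 in Srsf2 mutated, 434.1 to 454.8 in Setd2 knockout and 398.6 to 446.3 in wild type libraries. The stem cell marker Ly6a went the other way, at 25.7 to 26.9 CPM in double mutant and 9.36 to 15.5 in Srsf2 mutated libraries. It was at 2.98 to 3.31 CPM in Setd2 knockout and 8.37 to 8.58 in wild type libraries. Cd34 was lowest in double mutant (154.2 to 161.0 CPM) and highest in wild type libraries (281.0 to 308.5 CPM).

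The Hox genes that the cells used were those of the middle of the A cluster and Hoxb4. Of the 38 members described, 13 passed the filter on low counts and were tested, 8 of the A cluster (Hoxa2 to Hoxa7, Hoxa9 and Hoxa10) and 5 of the B cluster (Hoxb2 to Hoxb6). The filter demanded about 10 counts in at least as many libraries as the smallest group holds, so a member could pass on the strength of 1 group. None of the C and D clusters passed. Only 4 members, Hoxa5, Hoxa7, Hoxa9 and Hoxb4, reached 1 CPM in all 10 libraries. Per gene length, the A cluster made up 68.3% to 82.6% of all Hox FPKM in a library and the B cluster 16.7% to 30.8%, while the C and D clusters stayed at or under 1.41% and 0.787%.

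**Figure D1:**
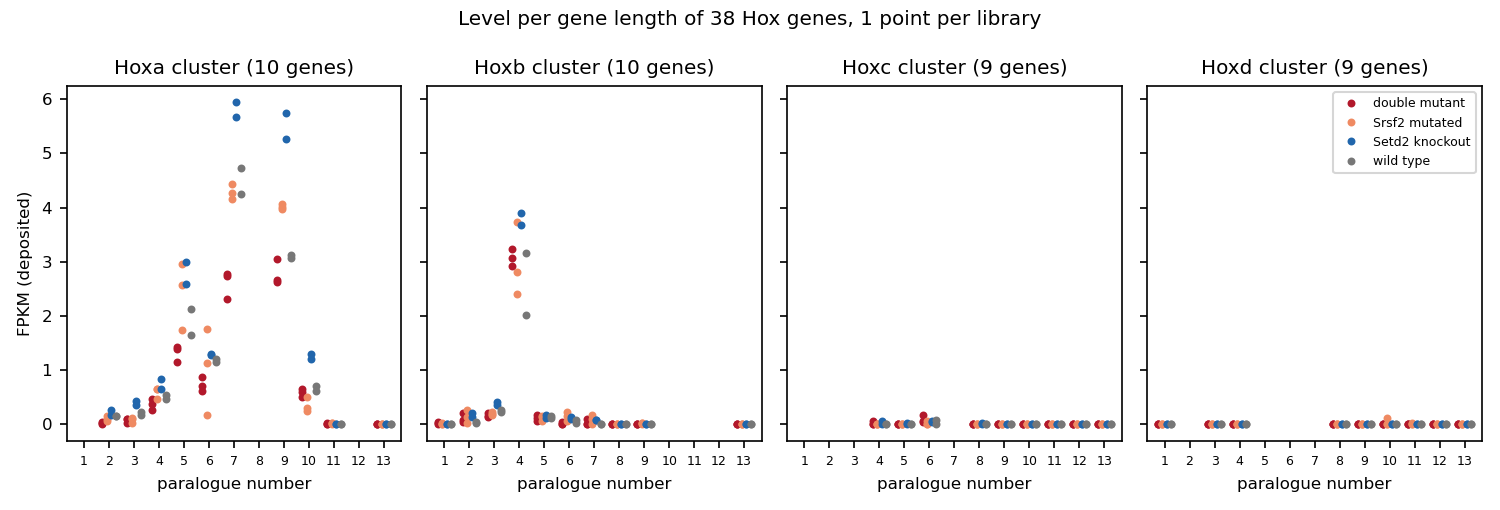
Deposited FPKM (vertical axis) of 38 Hox genes against paralogue number in each of the 4 clusters, 1 point per library and 1 colour per group. Levels peak at Hoxa7, Hoxa9 and Hoxb4, and the C and D clusters lie near 0.

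Per gene length, Hoxa7 and Hoxa9 led in 3 of the 4 groups. In double mutant libraries the order was Hoxb4 (3.08 ± 0.161 FPKM, SD), Hoxa9 (2.79 ± 0.237), Hoxa7 (2.61 ± 0.257), Hoxa5 (1.33 ± 0.146) and Hoxa6 (0.741 ± 0.132). The ranges of Hoxb4 (2.92 to 3.24 FPKM) and Hoxa9 (2.63 to 3.06 FPKM) overlapped there, as did those of Hoxa9 and Hoxa7. Among Srsf2 mutated libraries Hoxa7 (4.29 ± 0.143 FPKM) came before Hoxa9 (4.02 ± 0.0404) and Hoxb4 (2.99 ± 0.683), and the Hoxb4 range of 2.41 to 3.74 FPKM overlapped that of Hoxa5. In Setd2 knockout libraries Hoxa7 (5.81 ± 0.189 FPKM) and Hoxa9 (5.51 ± 0.343) overlapped, ahead of Hoxb4 (3.78 ± 0.16) and Hoxa5 (2.79 ± 0.281). Wild type libraries had Hoxa7 at 4.49 ± 0.335 FPKM, above Hoxa9 at 3.10 ± 0.0347, with Hoxb4 (2.6 ± 0.807) spread over a range that held the Hoxa9 value. Even the leading members were mid-level transcripts by FPKM: Hoxa9 stood above 51.3% of tested genes in double mutant, 56.7% in Srsf2 mutated, 61.1% in Setd2 knockout and 55.1% in wild type libraries. These ranks depend on the length used, all annotated exonic bases, which is 5580 for Hoxa9, 2876 for Hoxa7 and 2566 for Hoxb4. In counts not divided by length Hoxa9 stood first in every library, with 776 and 794 in wild type libraries against 552 and 618 for Hoxa7.

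The summed A cluster (10 members described here) was lowest in double mutant libraries. It came to 28.5, 30.6 and 32.6 CPM in double mutant, 42.0, 42.1 and 41.3 CPM in Srsf2 mutated, 57.4 and 56.3 CPM in Setd2 knockout, and 41.1 and 42.6 CPM in wild type libraries. No double mutant value reached that of any other library, and the Srsf2 mutated and wild type values overlapped. The Srsf2 mutated values of the summed B cluster overlapped those of every other group, with 9.91 ± 0.245 CPM in double mutant, 9.63 ± 2.23 in Srsf2 mutated, 11.6 ± 0.6 in Setd2 knockout and 8.88 ± 2.41 in wild type libraries (SD).

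Most of the other members had few or no counts. No count was found in any library for 13 genes: Hoxa13, Hoxb13, Hoxc9 to Hoxc13, and Hoxd1, Hoxd3, Hoxd4, Hoxd9, Hoxd12 and Hoxd13. A count of 0 allows up to 3 counts, which is 0.0605 to 0.0978 CPM depending on the library (a limit for counting error only, as PCR copies were not told apart by molecular identifiers). The other 12 untested members had some counts, namely Hoxa11, Hoxb1, Hoxb7, Hoxb8, Hoxb9, Hoxc4, Hoxc5, Hoxc6, Hoxc8, Hoxd8, Hoxd10 and Hoxd11. The highest of these in 1 library was 20 counts, for Hoxc6 in double mutant replicate 2. All of the posterior genes of the C cluster, which pattern the hind end of the embryo, were thus at 0, and the D cluster reached 10 counts once, for Hoxd10 in Srsf2 mutated replicate 2.

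Setd2 knockout in the presence of mutated Srsf2, double mutant over Srsf2 mutated, went with lower Hoxa9, Hoxa7 and Hoxa5 and higher Hoxa10. In all, 4 of 13 tested members were called at an adjusted p under 0.05 (edgeR quasi-likelihood test, Benjamini-Hochberg over all 19289 tested genes), while 33.8% of all tested genes were called, 17.8% higher and 15.9% lower. This share of members, 30.8%, is near that background. The median log2 difference was -0.36 over the 13 members and 0.00 over all tested genes. Of the 13, 10 lay below 0, against 49.5% of all tested genes. The signs of Hoxa3, Hoxa6, Hoxb2, Hoxb4 and Hoxb5, all uncalled, turned on leaving out 1 or another library. Hoxa2 and Hoxb6 had 1 to 3 counts per double mutant library and passed the filter only through other groups. The filter thus favoured values below 0 for them. Members of 1 cluster are neighbours, so the tally does not count independent genes. In bulk libraries fewer cells of a type and less RNA per cell cannot be told apart.

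Hoxa9 sustains hematopoietic stem cells in mice and drives acute myeloid leukemia when it is overproduced. It lies at chromosome 6, 52223100 to 52231089 (GRCm38, ENSMUSG00000038227). Its level was 15.6, 15.3 and 17.8 CPM in double mutant libraries, 21.6, 21.6 and 22.2 CPM in Srsf2 mutated libraries, 29.4 and 27.1 CPM in Setd2 knockout libraries, and 18.3 and 18.7 CPM in wild type libraries. No values overlapped between any of the 4 groups, in the order Setd2 knockout, Srsf2 mutated, wild type, double mutant. Against Srsf2 mutated libraries the double mutant differed by -0.43 on the log2 scale (SE 0.0887, 95% interval -0.61 to -0.24, adjusted p = 0.00136), a level 1.34-fold lower.

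Hoxa7, a neighbour that also transforms myeloid progenitors with Meis1, fell too. It lies at chromosome 6, 52214491 to 52221854 (ENSMUSG00000038236). Double mutant libraries had 6.98, 8.31 and 8.23 CPM, Srsf2 mutated libraries 11.7, 12.2 and 12.1 CPM, Setd2 knockout libraries 14.9 and 15.7 CPM, and wild type libraries 13.0 and 14.5 CPM. Every double mutant value lay below all other libraries. The difference from Srsf2 mutated was -0.61 (SE 0.108, interval -0.84 to -0.38, adjusted p = 0.000351).

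Hoxa5, which in human progenitors favours myeloid over erythroid development, was lower as well. It lies at chromosome 6, 52201754 to 52204587 (ENSMUSG00000038253). It stood at 2.28, 2.73 and 2.79 CPM in double mutant, at 4.69, 5.31 and 3.24 CPM in Srsf2 mutated, at 4.45 and 5.16 CPM in Setd2 knockout, and at 4.23 and 3.32 CPM in wild type libraries. The double mutant was again below all others, while the other 3 groups overlapped in part. Its difference from Srsf2 mutated was -0.76 (SE 0.206, interval -1.20 to -0.32, adjusted p = 0.00901).

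Hoxa10, a gene of early myeloid and megakaryocyte progenitors, went the other way. It lies at chromosome 6, 52231197 to 52240854 (ENSMUSG00000000938). Double mutant libraries had 1.73, 2.25 and 2.05 CPM and Srsf2 mutated libraries 0.975, 0.767 and 1.65 CPM, beside 3.91 and 3.66 CPM in Setd2 knockout and 2.14 and 2.47 CPM in wild type libraries. The double mutant and wild type ranges overlapped, those of the double mutant and Srsf2 mutated groups did not. The difference of 0.85 (SE 0.278, interval 0.26 to 1.44, adjusted p = 0.0272) was not stable. It lost the call with only the groups compared (adjusted p = 0.0871) and without double mutant replicate 2 (0.0907) or 3 (0.0677), Srsf2 mutated replicate 1 (0.0989) or 2 (0.0912), or Setd2 knockout replicate 1 (0.0532) or 2 (0.0524).

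**Figure D2:**
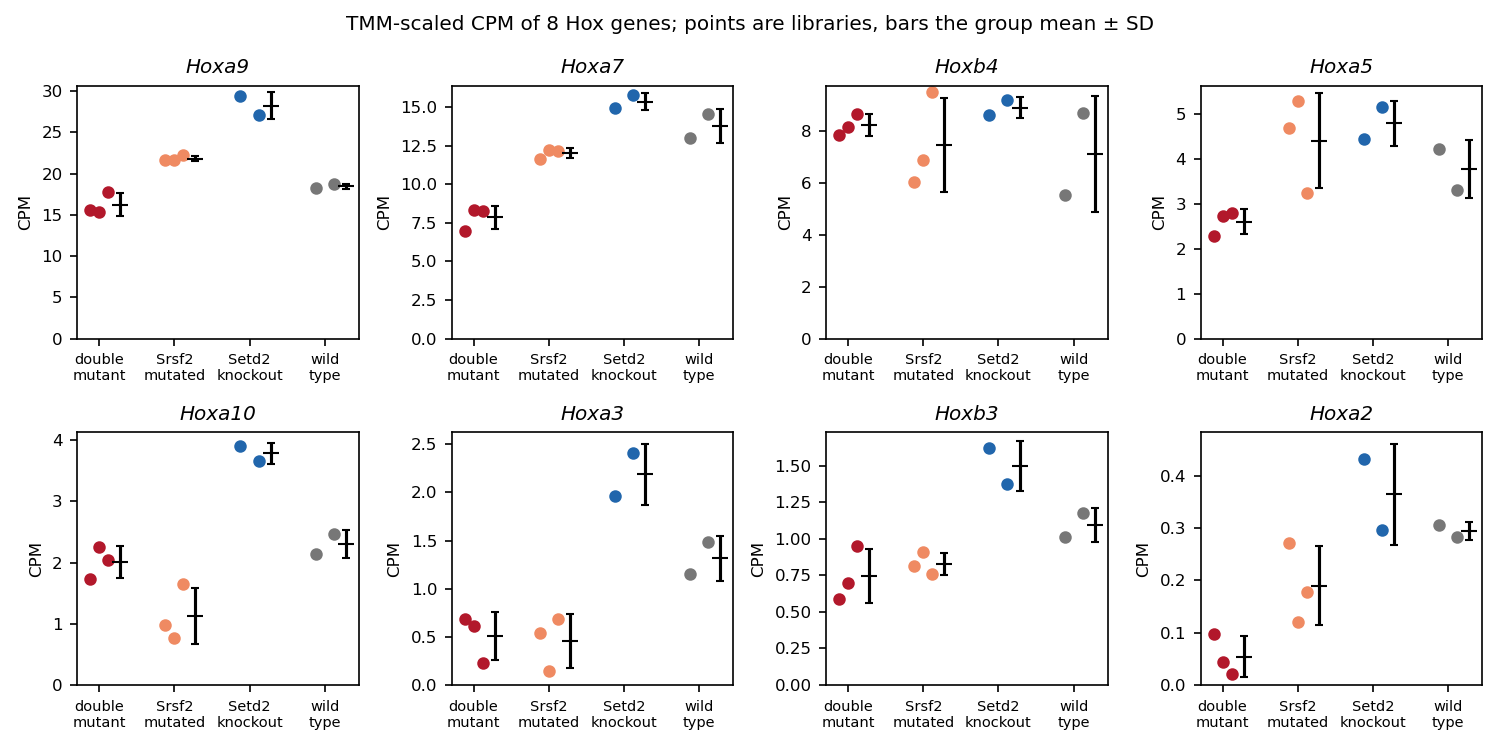
TMM-scaled CPM (vertical axis, from 0, with its own range in each panel) of 8 Hox genes in double mutant, Srsf2 mutated, Setd2 knockout and wild type libraries; points are libraries, bars the mean and SD. The double mutant lies below all other libraries for Hoxa9, Hoxa7 and Hoxa5, and the groups overlap for Hoxb4.

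Hoxb4, which expands stem cells when it is overproduced, passed the test in none of the comparisons. It lies at chromosome 11, 96318267 to 96321638 (ENSMUSG00000038692). Its level was 7.86, 8.18 and 8.68 CPM in double mutant, 6.03, 6.88 and 9.52 CPM in Srsf2 mutated, 8.62 and 9.20 CPM in Setd2 knockout, and 5.53 and 8.70 CPM in wild type libraries. The values of all 4 groups overlapped one another. The interval of its difference was -0.24 to 0.53 for double mutant over Srsf2 mutated and -0.53 to 0.31 for double mutant over Setd2 knockout, so changes of the size seen for Hoxa7 lay outside both.

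Markers of other cell types moved with the same groups. Of 10 erythroid markers all 10 were higher in double mutant libraries than in Srsf2 mutated ones, with summed levels of 19037 to 20295 CPM against 5741 to 7272 CPM. All 8 late neutrophil markers were higher (31723 to 32417 against 13816 to 17241 CPM), and 7 of 8 early neutrophil markers were lower (7246 to 7409 against 9181 to 10784 CPM). The exception, Cebpe, averaged 94.9 CPM in double mutant and 71.7 CPM in Srsf2 mutated libraries. Of 10 B lymphoid markers 9 were lower (303.7 to 320.0 against 1094 to 1150 CPM). Of 9 tested stem cell markers 3 were higher and 4 lower, with Ndn, the tenth, under the filter at no more than 0.47 CPM. The part of these cell types in the Hox differences was not tested.

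Mutated Srsf2 in the presence of Setd2 knockout, double mutant over Setd2 knockout, went with the lowest median Hox difference of the 4 comparisons. Of the 13 tested members 7 were called, all lower: Hoxa2, Hoxa3, Hoxa5, Hoxa7, Hoxa9, Hoxa10 and Hoxb3. Of all tested genes 51.8% were called, 26.0% higher and 25.8% lower, so the share called in either direction is near the background, and the share called lower is above it. The median log2 difference was -0.88 over the members and 0.01 over all tested genes. All 13 of 13 members lay below 0, against 49.5% of all tested genes. The limits given for the tally against Srsf2 mutated libraries hold here too. Hoxb5 turned to 0.20 without double mutant replicate 3. Without Setd2 knockout replicate 1 only 4 members were called. All 8 late neutrophil, all 10 B lymphoid and 7 of 10 erythroid markers were higher and 7 of 8 early neutrophil markers lower in double mutant libraries. The erythroid exceptions were Car1 (285.0 against 595.1 CPM), Klf1 (119.1 against 128.6 CPM) and Epor (66.5 against 68.0 CPM). The early neutrophil exception was Cebpe (94.9 against 71.7 CPM). The part of these markers in the Hox differences was not tested.

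Hoxa7 differed by -0.96 (SE 0.118, adjusted p = 4.12e-06) and Hoxa9 by -0.80 (SE 0.0969, adjusted p = 3.85e-06) in that comparison. Hoxa5 differed by -0.88 (SE 0.225, adjusted p = 0.00371). Hoxa10 differed by -0.91 (SE 0.288, adjusted p = 0.0147), with adjusted p = 0.0506 without double mutant replicate 1 and 0.0717 without Setd2 knockout replicate 1. Thus Hoxa10, unlike the 3 genes before it, was called in opposite directions against the 2 single mutants.

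Hoxa3, which in the mouse embryo restrains blood formation from endothelium, showed the largest called difference after Hoxa2. Double mutant libraries had 0.685, 0.612 and 0.227 CPM, Srsf2 mutated libraries 0.544, 0.141 and 0.683 CPM, Setd2 knockout libraries 1.97 and 2.41 CPM, and wild type libraries 1.15 and 1.48 CPM. Both groups with mutated Srsf2 lay below both groups without it, with no overlap. The difference between double mutant and Setd2 knockout was -2.13 (SE 0.528, interval -3.25 to -1.01, adjusted p = 0.00298), and its call held under all alternatives.

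Hoxa2, a hindbrain gene, rested on few counts. It had 3, 2 and 1 counts in double mutant, 12, 6 and 7 in Srsf2 mutated, 20 and 14 in Setd2 knockout, and 13 and 12 in wild type libraries. The double mutant libraries were the lowest, with a fitted difference from Setd2 knockout of -2.78 (SE 0.917, adjusted p = 0.0182), which lost the call without double mutant replicate 3 (0.0644) or either Setd2 knockout library (0.144 and 0.0596). Hoxb3, a relative of Hoxa3 expressed in early progenitors, averaged 0.746 ± 0.187 CPM in double mutant, 0.828 ± 0.075 in Srsf2 mutated, 1.5 ± 0.173 in Setd2 knockout and 1.09 ± 0.116 in wild type libraries (SD). Its difference of -0.99 (SE 0.36, adjusted p = 0.0304) lost the call with no filter on low counts (0.0733) and without double mutant replicate 1 (0.0871) or 2 (0.072) or either Setd2 knockout library (0.159 and 0.0699).

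The other 5 members stayed uncalled in both comparisons of the double mutant. Hoxa4 averaged 0.614 ± 0.155 CPM in double mutant, 0.924 ± 0.172 in Srsf2 mutated, 1.10 ± 0.182 in Setd2 knockout and 0.859 ± 0.0833 in wild type libraries. Hoxa6 had 20, 26 and 39 counts in double mutant and 66, 47 and 6 counts in Srsf2 mutated libraries, where replicate 3 stood far below the other 2, and 46 to 49 counts in the remaining 4. Hoxb6 had 3, 1 and 1 counts in double mutant against 13, 6 and 17 in Srsf2 mutated libraries, with no overlap. Its fitted difference of -2.64 (SE 1.0) had an adjusted p = 0.0541 and was called with upper-quartile scaling (0.047), by DESeq2 (0.0356), and without double mutant replicate 1 (0.0413) or Srsf2 mutated replicate 2 (0.0276). Hoxb5, which marks long-term stem cells in mice, averaged 0.335 ± 0.162 CPM in double mutant, 0.341 ± 0.142 in Srsf2 mutated, 0.363 ± 0.116 in Setd2 knockout and 0.412 ± 0.0831 in wild type libraries. Hoxb2, a hindbrain gene, had 23, 7 and 15 counts in double mutant, 5, 43 and 20 in Srsf2 mutated, 19 and 32 in Setd2 knockout, and 8 and 3 in wild type libraries. Its Srsf2 mutated values spanned those of the double mutant group, and the Setd2 knockout values lay above both wild type values.

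Setd2 knockout with normal Srsf2, Setd2 knockout over wild type (n = 2 each), went with higher Hoxa9. That was the 1 member called of 13, against 38.6% of all tested genes, 18.7% higher and 19.9% lower. The median log2 difference was 0.36 over the members and 0.04 over all tested genes. Only 2 members lay below 0, against 47.0% of all tested genes. Here too the tally does not count independent genes. Upper-quartile scaling made 59.5% of all calls higher, against 48.4% here. Hoxa9 differed by 0.61 (SE 0.107, interval 0.38 to 0.84, adjusted p = 0.000328), a level 1.53-fold higher. Hoxa10 (0.71, SE 0.319, adjusted p = 0.088) was called with only the groups compared (0.0134) and without Srsf2 mutated replicate 2 (0.0499) or 3 (0.0287). With only the groups compared Hoxa3 (0.74, adjusted p = 0.0406) and Hoxb2 (2.06, adjusted p = 0.0319) were called too, for 4 members in all. Hoxa7 was uncalled, at 0.16 with an interval of -0.12 to 0.43. All 8 late neutrophil and all 8 early neutrophil markers were lower and all 10 erythroid markers higher in Setd2 knockout libraries, and their part was not tested.

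Mutated Srsf2 with normal Setd2, Srsf2 mutated over wild type, went with lower Hoxa10 and Hoxa3 and slightly higher Hoxa9. These 3 of 13 members compare with 56.3% of all tested genes, 28.5% higher and 27.8% lower, and the share of members, 23.1%, lies below that background. Hoxa10 differed by -1.04 (SE 0.303, adjusted p = 0.00834), a level 2.06-fold lower, and lost the call without wild type replicate 2 (0.0629). Hoxa3 differed by -1.55 (SE 0.539, adjusted p = 0.0231) and lost the call without Srsf2 mutated replicate 2 (0.059) or wild type replicate 2 (0.126). Hoxa9 differed by 0.24 (SE 0.099, adjusted p = 0.0496), and this call ended with no filter on low counts (0.133), with only the groups compared (0.105) and on leaving out any 1 library apart from double mutant replicate 3 (0.052 to 0.187). Without wild type replicate 2 no member was called (1 at an unadjusted p under 0.05 by edgeR), and without Srsf2 mutated replicate 2 only 1. Hoxb2 was uncalled (1.92, adjusted p = 0.0948) but called without Srsf2 mutated replicate 1 (2.40, adjusted p = 0.0315). All 10 B lymphoid markers were higher and all 8 early neutrophil markers lower in Srsf2 mutated libraries. Of 10 erythroid markers 6 were higher and 2, Klf1 and Car1, lower, with summed levels of 5741 to 7272 CPM in Srsf2 mutated against 565.1 to 645.0 CPM in wild type libraries. Of 7 mast cell and basophil markers 5 were higher (813.4 to 1021 against 223.2 to 235.8 CPM). The part of these cell types was not tested.

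The difference between the Setd2 knockout effect with mutated Srsf2 and that with normal Srsf2 (the interaction) was below 0 for Hoxa9, Hoxa7 and Hoxa5. These 3 of 13 members were called, against 31.9% of all tested genes, 16.7% higher and 15.2% lower; upper-quartile scaling made 37.6% of all calls higher, against 52.4% here. That scaling also moved the median over all tested genes to -0.21, against -0.07 here, while the median over the members was -0.77 here. Hoxa9 had an interaction of -1.04 (SE 0.139, interval -1.33 to -0.74, adjusted p = 2.97e-05), from a lower level in the double mutant than in the Srsf2 mutated libraries and a higher one in Setd2 knockout than in wild type libraries. Hoxa7 had -0.77 (SE 0.168, interval -1.12 to -0.41, adjusted p = 0.00227). Hoxa5 had -1.11 (SE 0.32, interval -1.79 to -0.43, adjusted p = 0.0145), which lost the call without Setd2 knockout replicate 2 (0.0605) or wild type replicate 2 (0.0788). Hoxa10, where both differences were positive, had 0.13 with an interval of -0.76 to 1.03 (-0.011 with upper-quartile scaling).

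**Figure D3:**
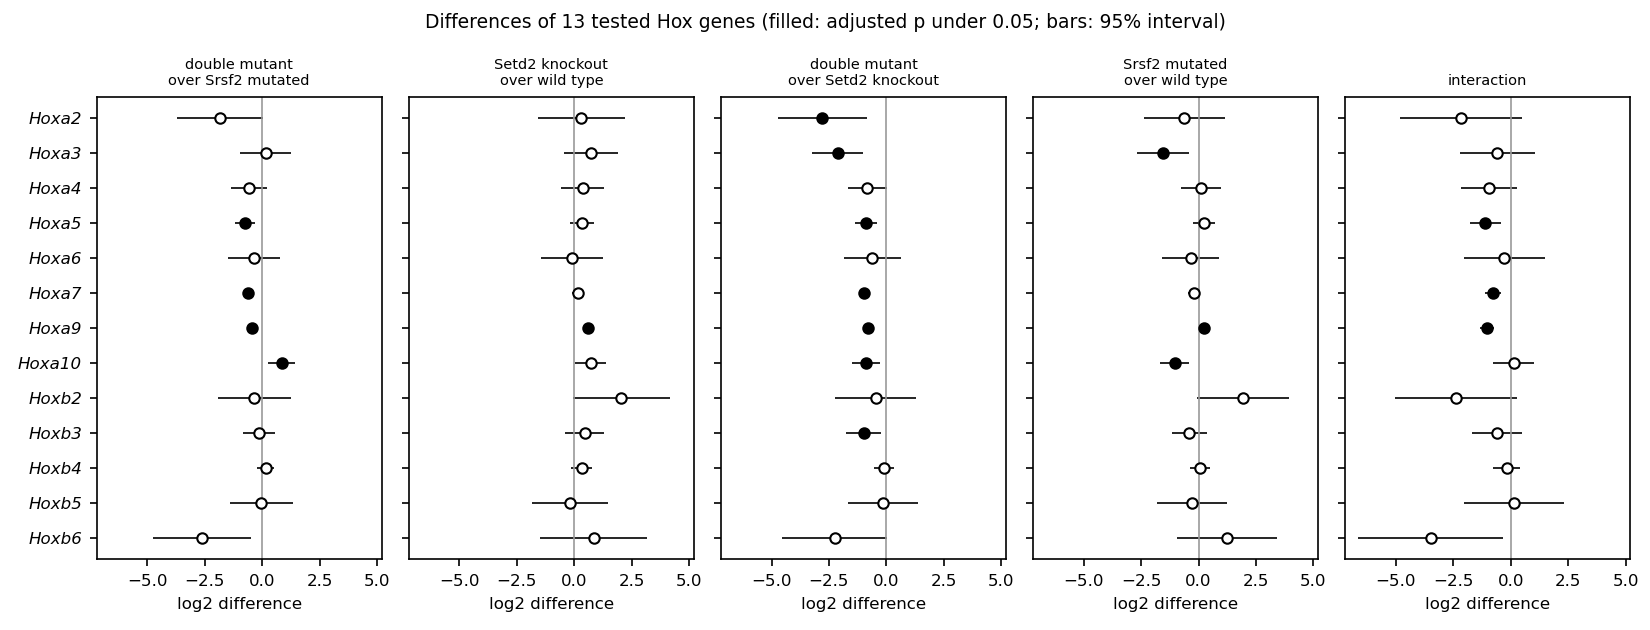
Log2 difference (horizontal axis) of 13 tested Hox genes (rows) in the 4 comparisons and the interaction, with the 95% interval as a bar; filled points have an adjusted p under 0.05. Hoxa9 lies at -0.43 in double mutant over Srsf2 mutated and at 0.61 in Setd2 knockout over wild type, and intervals are wide for genes of few counts such as Hoxa2 and Hoxb6.

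Counts relative to Hoxa9 within the same library, chosen after the levels had been seen and given without a test, were free of library scaling. Hoxa10 came to 11.1%, 14.7% and 11.5% of Hoxa9 in double mutant, 4.51%, 3.54% and 7.41% in Srsf2 mutated, 13.3% and 13.5% in Setd2 knockout, and 11.7% and 13.2% in wild type libraries. The Srsf2 mutated libraries lay below all others, and the ranges of the other 3 groups lay close together. Hoxa7 came to 44.8% to 54.4% of Hoxa9 in double mutant, 53.9% to 56.4% in Srsf2 mutated, 50.9% and 58.2% in Setd2 knockout, and 71.1% and 77.8% in wild type libraries, where it was highest. Hoxb4 came to 48.8% to 53.5% of Hoxa9 in double mutant libraries, above the 27.9% to 46.6% of all other libraries. Hoxa5 set no group apart, at 14.6% to 17.9% of Hoxa9 in double mutant, 14.6% to 24.5% in Srsf2 mutated, 15.1% and 19.1% in Setd2 knockout, and 23.2% and 17.8% in wild type libraries.

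**Figure D4:**
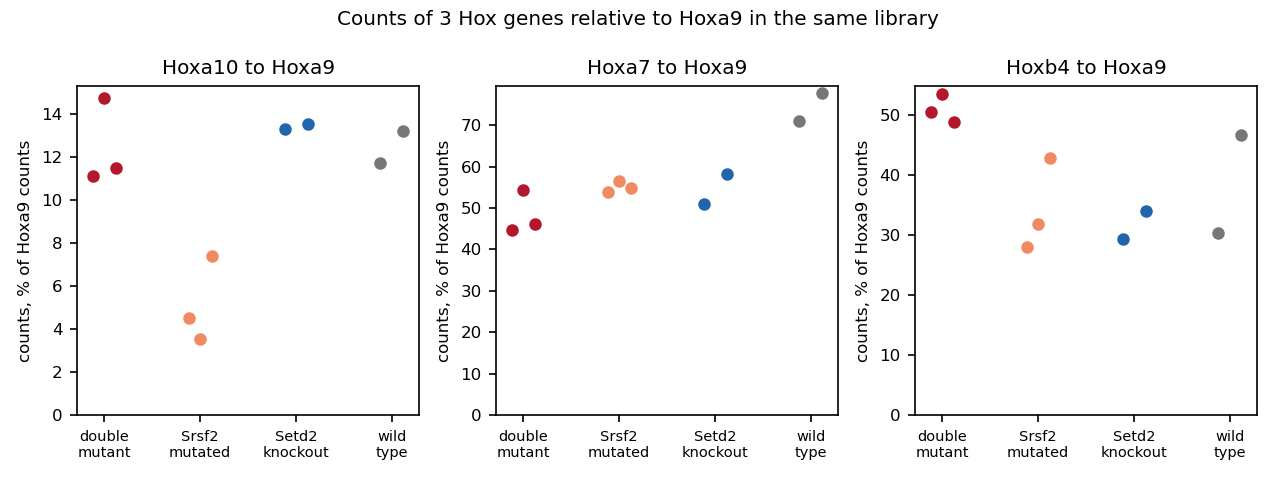
Counts of Hoxa10, Hoxa7 and Hoxb4 as a percentage of Hoxa9 counts in the same library (vertical axes start at 0), 1 point per library. Hoxa10 is at 3.54% to 7.41% in Srsf2 mutated libraries and at 11.1% or more in all others.

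Cofactors of Hox proteins went in both directions. Of 7 tested TALE genes described here 1 was higher and 1 lower in double mutant over Srsf2 mutated, 3 and 2 in double mutant over Setd2 knockout, 2 and 1 in Setd2 knockout over wild type, and 0 and 4 in Srsf2 mutated over wild type, with medians of 0.15, 0.23, -0.13 and -0.22 in that order. Over all tested genes 33.8%, 51.8%, 38.6% and 56.3% were called in these comparisons. Meis1, the partner of Hoxa9 in leukemia, averaged 16.1 ± 1.17 CPM in double mutant, 19.8 ± 0.879 in Srsf2 mutated, 39.4 ± 0.382 in Setd2 knockout and 29.9 ± 1.0 in wild type libraries (SD). It was lower in double mutant libraries than in Srsf2 mutated ones (-0.30, SE 0.0847, adjusted p = 0.0116) and higher in Setd2 knockout than in wild type libraries (0.40, SE 0.1, adjusted p = 0.00514), with an interaction of -0.70 (adjusted p = 0.000657). Meis2 stayed under the filter.

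Among 16 genes described as regulated by Hoxa9 and Meis1, 12 were lower and 1 higher in double mutant libraries than in Srsf2 mutated ones, with a median log2 difference of -0.48, against 0.00 over all tested genes, of which 15.9% were called lower and 17.8% higher. Sox4, a transcription factor of progenitors, averaged 85.3 ± 3.13 CPM in double mutant and 160.9 ± 2.15 in Srsf2 mutated libraries (-0.91, SE 0.0579, adjusted p = 4.41e-09). Erg, a stem cell transcription factor, averaged 49.5 ± 1.54 CPM in double mutant and 91.2 ± 8.07 CPM in Srsf2 mutated libraries. Myb, a factor of proliferating progenitors, averaged 250.5 ± 2.76 CPM in double mutant and 360.5 ± 6.46 CPM in Srsf2 mutated libraries. The kinase gene Pim1 was the 1 member called higher. In Setd2 knockout over wild type 2 were higher and 3 lower, where 38.6% of all tested genes were called. In Srsf2 mutated over wild type 9 were higher and 5 lower, where 56.3% of all tested genes were called. The list includes Cd34, a surface marker of progenitors, and 4 of 6 progenitor markers were lower in double mutant libraries than in Srsf2 mutated ones. Of the other 2, Ptprc was higher (625.1 against 363.1 CPM) and Spi1 was uncalled (298.7 against 263.2 CPM), and the summed list stood at 1443 to 1450 CPM in double mutant and 1344 to 1363 CPM in Srsf2 mutated libraries. The part of these markers was not tested.

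**Figure D5:**
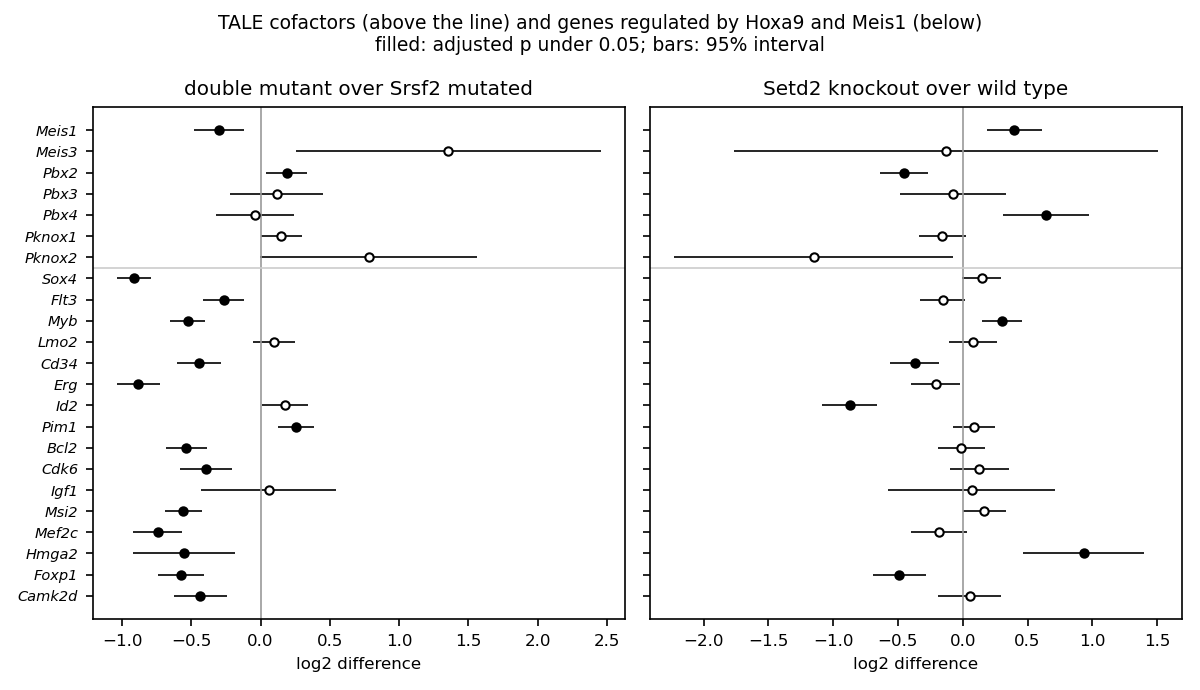
Log2 difference (horizontal axis) of TALE cofactor genes (above the line) and genes regulated by Hoxa9 and Meis1 (below it) in double mutant over Srsf2 mutated and in Setd2 knockout over wild type; bars are 95% intervals and filled points have an adjusted p under 0.05. Meis1 lies at -0.30 on the left and at 0.40 on the right.

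Regulators of Hox transcription changed in both directions. Of 20 Polycomb genes 3 were higher and 11 lower in double mutant over Srsf2 mutated, and 4 and 11 in double mutant over Setd2 knockout (median -0.25 and -0.21, against 0.00 and 0.01 over all tested genes). Of all tested genes 15.9% were called lower in the first of these comparisons and 25.8% in the second. Bmi1, a core repressor subunit, averaged 34.0 ± 0.319 CPM in double mutant and 53.8 ± 1.42 in Srsf2 mutated libraries (-0.66, adjusted p = 4.79e-05). Pcgf2, its paralogue, averaged 2.21 ± 0.207 CPM in double mutant and 6.58 ± 1.06 CPM in Srsf2 mutated libraries (-1.57, adjusted p = 3.79e-06). Of 16 tested genes of MLL-type activating complexes and their partners 1 was higher and 2 lower in double mutant over Srsf2 mutated, and 3 and 10 in double mutant over Setd2 knockout. The first count lies below the 33.8% of all tested genes called in that comparison and the second above the 51.8% called there. Men1, the menin subunit that ties MLL to Hox genes, averaged 53.5 ± 1.67 CPM in double mutant, 64.3 ± 3.88 in Srsf2 mutated, 80.1 ± 3.78 in Setd2 knockout and 110.0 ± 9.22 in wild type libraries. The Hox inducers Cdx1 and Cdx4 had 0 counts in all libraries, and Cdx2 reached no more than 0.0506 CPM.

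Transcripts without protein from within the clusters were scarce. Only 4 of 17 such genes were tested and none was called in any comparison by edgeR or DESeq2. At an unadjusted p under 0.05 edgeR had 1 gene in double mutant over Srsf2 mutated, Hoxaas3 (adjusted p = 0.0875), and DESeq2 had 1 there, 1 in Setd2 knockout over wild type and 1 in the interaction. Hoxaas3 had 7, 3 and 18 counts in double mutant, 36, 23 and 24 in Srsf2 mutated, 24 and 17 in Setd2 knockout, and 11 and 14 in wild type libraries. It shares 20.4% of the exonic bases of Hoxa7 on the opposite strand, and strandedness is not given in the sources used here, so reads of the pair cannot be told apart there. The same holds for Hoxb3os with Hoxb3 (52.9% of exonic bases) and Hoxb2 (27.3%), and for several antisense genes with Hoxa3 (25.4% in all) and Hoxa4 (16.0%). On the same strand a predicted gene shares 15.0% of Hoxa2 and 8.01% of Hoxa3, while Hoxa5, Hoxa6, Hoxa10, Hoxb4 and Hoxb6 share none and Hoxa9 shares 1.52% with a microRNA gene. Genes flanking the clusters went both ways, with 2 of 12 tested higher and 1 lower in double mutant over Srsf2 mutated, where 33.8% of all tested genes were called.

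The authors' deposited table gave the same sign for 13 of 13 members in each of its 3 comparisons. For Setd2 knockout over wild type the authors' deposited table listed Hoxa9 at 0.61 (authors' adjusted p = 1.04e-05) as the 1 member under 0.05, and for Srsf2 mutated over wild type it listed Hoxa3, Hoxa9 and Hoxa10. For double mutant over Srsf2 mutated the authors' deposited table listed Hoxa7 alone (-0.69, authors' adjusted p = 0.0291). The other genes called here were not under 0.05 there: Hoxa9 at -0.50 (0.291), Hoxa5 at -0.83 (0.229) and Hoxa10 at 0.76 (0.487). A further 2 members had no adjusted p in the authors' deposited table.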

How the data were processed

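The authors deposited 3 tables of pairs of groups, which hold, per the file headers, a whole-number read count and an FPKM per gene and library, the authors' log2 fold changes and the authors' p-values. The deposited mean column (a score of abundance) was not used for any result. The submitters' processing notes list HISAT2 2.0.5, HTSeq 0.9.1, featureCounts 2.0.1 and DESeq2 1.22.2 without saying which step used which. The deposited FPKM equalled the count per gene length and library total. Counts of 5 libraries that stand in more than 1 table were identical, and Ensembl identifiers served to join the tables.

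Genes were filtered with filterByExpr (minimum count 10), scaled by TMM and tested with the quasi-likelihood test of edgeR 4.0.16 (R 4.3.3), two-sided, in 1 model of all 10 libraries with a term per group. SE is the log2 difference over the root of F, and 95% intervals use the t quantile of the fit. A self-test on simulated counts was run. Library totals of 32117387 to 50445434 counts put the floor of 3 counts at 0.0605 to 0.0978 CPM. DESeq2 1.42.0, other scalings and filters, a replicate block, only the groups compared and leaving out each library were the alternatives. The members, lists and comparisons were chosen with earlier results of these data known. A member and a cofactor gene are not reported here and stayed only in the fit over all genes; the other 38 members were named and, of each list, up to 4 genes of smallest adjusted p. Positions are from GENCODE M21 (GRCm38) and promoters from RefSeq (GRCm38.p6, 24 promoters of 22 Hox genes matched).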

Additional observations from a re-analysis of the deposited data

Results flagged for a closer look

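The effect of Setd2 knockout differed with the state of Srsf2 for 3 of 13 tested Hox genes by the interaction test over all tested genes (edgeR, adjusted p under 0.05). That test called 31.9% of all tested genes, and the share of members, 23.1%, lies below that background. On the log2 scale the interaction was -1.04 for Hoxa9, -0.77 for Hoxa7 and -1.11 for Hoxa5. It is the effect with mutated Srsf2 minus that with normal Srsf2. The Hoxa9 and Hoxa7 calls held under all alternatives, and the Hoxa5 call ended without Setd2 knockout replicate 2 (-1.04, adjusted p = 0.0605) or wild type replicate 2 (-0.94, adjusted p = 0.0788). Xist set the wild type libraries apart, and Ddx3y stood at 103.7 to 128.2 CPM in both groups with mutated Srsf2 and at 0 in both groups with normal Srsf2, so the sides of the interaction also differ in Y-linked expression. The part of sex in the interaction cannot be told apart from genotype.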

How the results depend on the processing

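Of 65 pairs of a tested member and a comparison 18 were called, and 10 of these were called under all alternatives: Hoxa9 in Setd2 knockout over wild type, in both double mutant comparisons and the interaction, Hoxa7 in both double mutant comparisons and the interaction, Hoxa5 in both double mutant comparisons, and Hoxa3 in double mutant over Setd2 knockout. Of all tested genes 33.8% were called in double mutant over Srsf2 mutated, 51.8% in double mutant over Setd2 knockout and 38.6% in Setd2 knockout over wild type. The share was 56.3% in Srsf2 mutated over wild type and 31.9% in the interaction. The shares of tested members were 30.8%, 53.8%, 7.69%, 23.1% and 23.1% in that order. A call was lost by 8 pairs and gained by 5 under some alternative, no called pair changed sign, and 14 of 47 uncalled pairs did. Replicate numbers did not pair the libraries: 0 of 13 pairs of libraries with the same number had a correlation of deviations over 0.1 (-0.0278 to 0.0398). With a replicate block the members called in Srsf2 mutated over wild type numbered 1 instead of 3 (Hoxa3 and Hoxa9 were lost), Hoxb4 there was -0.047, the Hoxa6 interaction was 0.0070, and no other call of a member changed. With only the groups compared, Setd2 knockout over wild type called 4 members. Upper-quartile scaling turned the interactions of Hoxa10 (-0.011) and Hoxb5 (-0.0043). Without each library in turn, members called numbered 4 to 7 in double mutant over Setd2 knockout, 1 to 2 in Setd2 knockout over wild type and 0 to 3 in Srsf2 mutated over wild type, and all genes called in Setd2 knockout over wild type numbered 4792 (without Setd2 knockout replicate 1) to 8803. Leaving out libraries turned uncalled differences, over these ranges. In double mutant over Srsf2 mutated they were -0.30 to 0.55 for Hoxa3, -0.85 to 0.22 for Hoxa6, -1.09 to 0.36 for Hoxb2, -0.028 to 0.35 for Hoxb4 and -0.39 to 0.30 for Hoxb5. Hoxb5 ranged from -0.49 to 0.20 in double mutant over Setd2 knockout and from -0.54 to 0.12 in Setd2 knockout over wild type. In Srsf2 mutated over wild type they were -0.96 to 0.14 for Hoxa6, -0.23 to 0.43 for Hoxb4 and -0.54 to 0.031 for Hoxb5. Interactions ranged from -0.75 to 0.30 for Hoxa6, -0.086 to 0.50 for Hoxa10, -0.55 to 0.11 for Hoxb4 and -0.21 to 0.48 for Hoxb5. The cause of these changes was not tested. Groups of 2 libraries, and at most 43 counts per library for Hoxa2, Hoxb2, Hoxb5 and Hoxb6, limit what differences could be seen.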
